A study of Mus musculus with 10 samples.

Results

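Interferon-stimulated genes are the genes that cells switch on when an interferon binds its receptor. The members were 46 such genes listed by name, and a member counted as measured if it had a probe set carrying its symbol alone. This held for 42 of the 46 listed members, out of 19938 genes measured in this way. The series compared the hippocampus of 5 Dp5/Dp1 mice with that of 5 control littermates, all male and 16 weeks old, with 1 Affymetrix Mouse Gene ST array per mouse. Dp5/Dp1 mice carry both the Dp5Yah and the Dp1Rhr duplication of mouse chromosome 16, obtained by crossing the 2 single lines, so that the genes inside are in 3 copies. The control mice carry neither duplication and also served the single lines, which are not analysed here. The background was C57BL/6N by the labels and C57BL/6J by the methods. The duplications are carried in every cell, and whole right and left hippocampi were taken, so fewer cells of a type and less RNA per cell cannot be told apart in any value below.

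Type I interferons bind a receptor made of Ifnar1 and Ifnar2, and the kinases Jak1 and Tyk2 on that receptor phosphorylate Stat2, which with Irf9 is part of ISGF3, the complex that binds the interferon-stimulated response element in the promoters of its target genes. Interferon gamma uses Ifngr1 and Ifngr2 and acts on the gamma-activated site and through the factor Irf1. In brain, a low basal interferon tone keeps these genes expressed at modest levels, and microglia, endothelial cells, astrocytes and neurons can all induce them.

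To show the response element that ISGF3 binds, 5 promoter stretches of members with an unadjusted p under 0.05 and 1 of a member with almost no difference (Oas3) are given here. They come from the RefSeq promoter table of GRCm38.p6 and run 5′ to 3′ in the direction of the gene. Capitals mark matches to the core of the element, GAAANNGAAA, on either strand, so that TTTC followed later by TTTC is the same core read on the other strand. In Gbp3 and Irgm1 the 2 matches overlap.
Gbp3, chr3:142559896-142560015, plus strand: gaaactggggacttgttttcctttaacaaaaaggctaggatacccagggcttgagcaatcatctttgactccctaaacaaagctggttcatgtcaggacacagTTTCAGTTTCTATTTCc
Irgm1, chr11:48871421-48871540, minus strand: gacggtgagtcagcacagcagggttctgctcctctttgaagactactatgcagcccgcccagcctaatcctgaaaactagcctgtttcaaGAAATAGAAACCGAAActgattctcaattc
Rsad2, chr12:26456508-26456627, minus strand: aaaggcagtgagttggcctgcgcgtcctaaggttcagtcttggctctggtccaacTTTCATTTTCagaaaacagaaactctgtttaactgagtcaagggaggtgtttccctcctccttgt
Ifit1, chr19:34640739-34640858, plus strand: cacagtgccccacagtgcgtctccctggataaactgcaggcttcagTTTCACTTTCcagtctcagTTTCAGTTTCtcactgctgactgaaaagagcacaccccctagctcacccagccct
B2m, chr2:122147493-122147612, plus strand: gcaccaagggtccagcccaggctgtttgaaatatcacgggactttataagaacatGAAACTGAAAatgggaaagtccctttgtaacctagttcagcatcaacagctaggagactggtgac
Oas3, chr5:120777685-120777804, minus strand: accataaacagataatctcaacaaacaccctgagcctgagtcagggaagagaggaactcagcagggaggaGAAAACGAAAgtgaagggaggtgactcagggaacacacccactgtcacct
In these stretches the first base of the core, or of the farther core, lay 30 bases before the annotated start in Irgm1, 75 in Oas3, 104 in Ifit1, 120 in Rsad2 and 139 in B2m. Over the 250 bases before the start, 12 of the 32 measured 2-copy members with a window (37.5%) held at least 1 core on either strand, against 936 of 27025 genes in the table (3.46%). The gamma-activated site, TTCNNNGAA, occurred in 7 of the 32 (21.9%), Irf1 and Psmb8 among them, against 8.13% of all genes. With 1 mismatch allowed in the 8 fixed letters, the core was found in 25 of the 32 (78.1%), against 34.7% of all genes. A match of letters is a description and not a binding site.

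Mx1 and Mx2, antiviral GTPases of the dynamin family, were read apart because of their place next to the end of Dp1Rhr. Mx1 (GRCm38.p6 chromosome 16, 97447035 to 97462906) lies inside the interval from Cbr1 to Fam3b (93607837 to 97504936) and would be in 3 copies. Mx2 (97536081 to 97560901) starts beyond the end of Fam3b, and the study lists it among genes that are not in 3 copies, so by position it is not inside, although it had been assigned to the interval when the members were chosen. The other 40 measured members are called the 2-copy members below. Mx2 is left out of this name and of the counts under it, although by position it is in 2 copies. Its mean was lower in Dp5/Dp1, with a difference of -0.05. Parp14, Dtx3l, Parp9 and Rtp4 also lie on chromosome 16 but before both intervals. Parp9, the last of them, ends at 35972621, and Dp5Yah starts at 85452858. Isg15, Gbp2 and Igtp had only a probe set shared with Gm9706, Gbp2b or Irgm2, and Ifi44 had none, so none of the 4 has a value here.

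All values are RMA log2 expression as deposited, and a difference is Dp5/Dp1 minus control on that scale. On the arrays of the 2 groups the duplications showed as labelled. The mean of the 31 genes inside Dp1Rhr was 8.21 to 8.26 in Dp5/Dp1 and 8.03 to 8.05 in control, and that of the 82 genes inside Dp5Yah was 7.28 to 7.34 in Dp5/Dp1 and 7.09 to 7.17 in control. Array medians lay between 6.73 and 6.80. Markers of hippocampal neurons were alike on all arrays, at 10.38 to 10.46 in Dp5/Dp1 and 10.40 to 10.49 in control, whereas markers of neighbouring tissue varied. Choroid plexus markers spanned 6.92 to 8.52 in Dp5/Dp1 and 6.81 to 8.92 in control, and medial habenula markers spanned 7.12 to 8.68 in Dp5/Dp1, with replicates 2 and 5 the highest, and 7.02 to 7.61 in control. All 12 choroid plexus markers had a lower mean in Dp5/Dp1, with a median difference of -0.41. All 7 habenula markers had a higher one, with a median difference of 0.39.

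No 2-copy member passed the test. Over all 19938 genes limma with Benjamini-Hochberg adjustment called 0.201% higher in Dp5/Dp1 at an adjusted p under 0.05, and 0 of the 40 were called in either direction, the lowest adjusted p being 0.40 for Gbp3. Below that threshold the 40 leaned one way, but the members were chosen with earlier results of these data known. The shares that follow are therefore descriptions, and how far the choice shaped them was not tested. A higher mean in Dp5/Dp1 was seen for 35 of them (87.5%), against 51.5% of all genes, and the median difference was 0.09, against 0.0019 over all genes. An unadjusted p under 0.05 with a higher mean was reached by 12 members (30.0%), against 3.39% of all genes. One with a lower mean (Irf1) did so, against 2.67% of all genes. The count of 12 depends on 1 mouse, being 6 without Dp5/Dp1 replicate 1, and it lay between 8 and 16 without any other single array. FCROS, the rank method of the study as rewritten here, placed 10 of the 40 in its upper tail, against 2.84% of all genes.

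**Figure D1:**
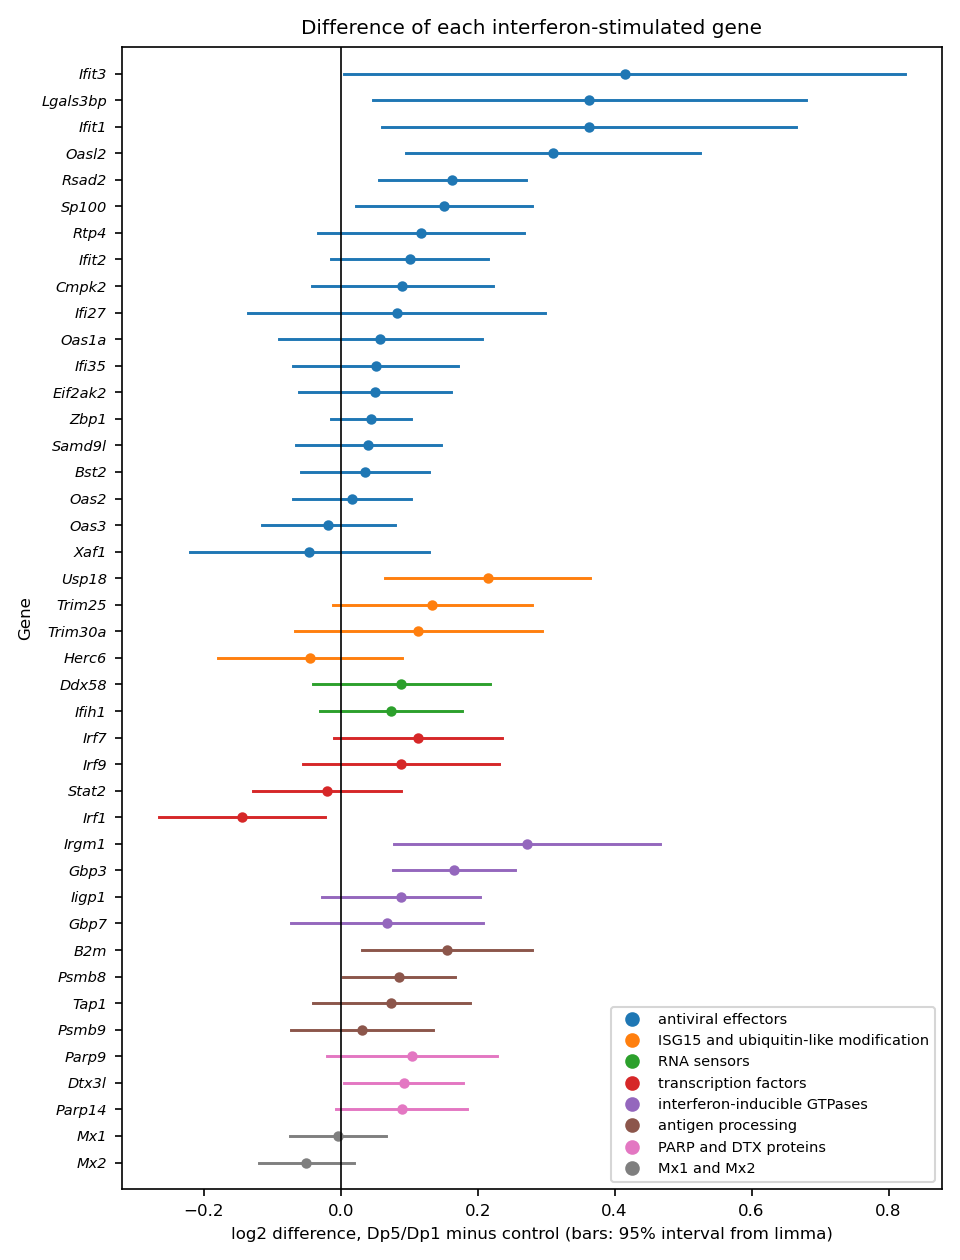
Log2 difference of each measured member (Dp5/Dp1 minus control, x axis) by gene (y axis), coloured by role, with the 95% interval from limma. Most points lie right of 0, the largest at 0.41 for Ifit3, and Irf1 lies lowest at -0.14, while no member was called after adjustment over 19938 genes.

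The interferon-inducible GTPases, which attack the vacuoles of intracellular pathogens, held the member with the lowest p and all 4 measured ones had a higher mean. Gbp3, a guanylate-binding protein, read 7.02, 6.89, 7.00, 6.96 and 6.91 in Dp5/Dp1 replicates 1 to 5, against 6.85, 6.83, 6.70, 6.84 and 6.74 in control replicates 1 to 5. Every Dp5/Dp1 array lay above every control, which no other 2-copy member showed (1 of 40, against 0.762% of all genes). The difference was 0.17 ± 0.04 (SE), a 1.12-fold ratio, with an unadjusted p = 0.00166 and an adjusted p = 0.40 by limma. The number of such members depends on single arrays: without control replicate 1 it was 5 and without Dp5/Dp1 replicate 4 it was 4. It was 3 without replicate 2 of either group, and 2 without Dp5/Dp1 replicate 3 or 5. With fewer arrays the groups separate more easily for any gene. The share of all genes was not computed for these counts, so they say nothing about the members in particular. Without control replicate 3, Gbp3 was again the one member with all Dp5/Dp1 arrays above, and Irf1 had all Dp5/Dp1 arrays below the remaining controls.

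Irgm1, an immunity-related GTPase with a role in autophagy, read 7.26, 6.96, 7.10, 6.92 and 6.98 in Dp5/Dp1, against 6.94, 6.57, 6.76, 6.99 and 6.61 in control. Controls 1 and 4 lay within the Dp5/Dp1 range, and the other 3 controls lay below all of them. The difference was 0.27 ± 0.09 (SE), a 1.21-fold ratio, with an unadjusted p = 0.0101 and an adjusted p = 0.734 by limma. Iigp1, a further immunity-related GTPase, was near the floor of the array at 5.05 ± 0.09 in Dp5/Dp1 and 4.96 ± 0.09 in control (SD, n = 5 each). Gbp7 averaged 7.20 ± 0.14 in Dp5/Dp1 and 7.13 ± 0.07 in control, and its difference of 0.07 ± 0.06 came to 0.01 without Dp5/Dp1 replicate 1.

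Among the antiviral effectors, 17 of the 19 measured 2-copy members had a higher mean in Dp5/Dp1, 6 of them with an unadjusted p under 0.05. The Ifit genes, whose proteins bind viral RNA lacking a proper cap, lie side by side on chromosome 19. Ifit1 read 7.24, 6.51, 7.07, 6.90 and 6.67 in Dp5/Dp1, against 6.79, 6.44, 6.67, 6.46 and 6.23 in control. Replicates 1, 3 and 4 of Dp5/Dp1 lay above all controls, and replicates 2 and 5 lay within the control range. The difference was 0.36 ± 0.14 (SE), a 1.29-fold ratio, with an unadjusted p = 0.0225 and an adjusted p = 0.806 by limma.

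Ifit3 had the largest difference of all members and also the widest spread over the 10 arrays, 1.22 between its lowest and its highest value. It read 8.68, 7.82, 8.22, 7.70 and 8.34 in Dp5/Dp1, against 8.19, 7.59, 7.45, 7.92 and 7.54 in control. The groups overlapped, since Dp5/Dp1 replicates 2 and 4 lay below the highest 2 controls. The difference was 0.41 ± 0.19 (SE), a 1.33-fold ratio, with an unadjusted p = 0.0475 and an adjusted p = 0.822 by limma. Ifit2 read 6.93, 6.81, 6.87, 6.83 and 6.77 in Dp5/Dp1, against 6.85, 6.74, 6.57, 6.83 and 6.71 in control. Its groups overlapped, the lowest value being that of control replicate 3, and the difference was 0.10 ± 0.05 with an unadjusted p = 0.0783. Its range over the fits without 1 array was 0.06 to 0.13, against 0.27 to 0.45 for Ifit1 and 0.28 to 0.53 for Ifit3.

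Rsad2 encodes viperin, an enzyme that makes a chain-terminating nucleotide against viral polymerases. It read 5.99, 5.90, 6.11, 5.87 and 5.97 in Dp5/Dp1, against 5.87, 5.89, 5.75, 5.78 and 5.73 in control, so that Dp5/Dp1 replicate 4 lay within the range of the controls and replicate 2 just above it. The difference was 0.16 ± 0.05 (SE), a 1.12-fold ratio, with an unadjusted p = 0.00642 and an adjusted p = 0.656 by limma. Rsad2 was dim, at percentile 26.2 of mean brightness. Cmpk2, a nucleotide kinase that is the neighbour of Rsad2 on chromosome 12, averaged 8.54 ± 0.11 in Dp5/Dp1 and 8.45 ± 0.11 in control (SD, n = 5 each), with a difference of 0.09 ± 0.06.

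Oasl2, a member of the 2-5-oligoadenylate synthetase family, read 7.94, 7.57, 7.95, 7.55 and 7.47 in Dp5/Dp1, against 7.48, 7.40, 7.47, 7.38 and 7.19 in control. Replicates 1 and 3 of Dp5/Dp1 stood well above the rest, and replicate 5 lay within the control range. The difference was 0.31 ± 0.10 (SE), a 1.24-fold ratio, with an unadjusted p = 0.00856 and an adjusted p = 0.714 by limma. The synthetases that make the activator of RNase L had values closer to 0, with a difference of 0.06 ± 0.07 for Oas1a, 0.02 ± 0.04 for Oas2 and -0.02 ± 0.04 for Oas3, and 95% intervals of -0.09 to 0.21, -0.07 to 0.10 and -0.11 to 0.08. Oas1a has close paralogues, and a further probe set of it was shared with Oas1g and left out.

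Lgals3bp, a secreted glycoprotein that binds galectin-3, read 9.31, 8.53, 9.10, 8.62 and 9.05 in Dp5/Dp1, against 8.86, 8.37, 8.43, 8.62 and 8.51 in control. Dp5/Dp1 replicates 1, 3 and 5 lay above all controls, and replicates 2 and 4 lay below control replicate 1. The difference was 0.36 ± 0.14 (SE), a 1.29-fold ratio, with an unadjusted p = 0.0277 and an adjusted p = 0.806 by limma. Sp100, a component of PML nuclear bodies, read 6.82, 6.45, 6.74, 6.70 and 6.58 in Dp5/Dp1, against 6.54, 6.51, 6.50, 6.49 and 6.50 in control. The 5 controls were nearly identical, and Dp5/Dp1 replicate 2 lay below all of them while the other 4 lay above. The difference was 0.15 ± 0.06 (SE), a 1.11-fold ratio, with an unadjusted p = 0.0252 and an adjusted p = 0.806 by limma. Sp100 belongs to a repeated gene family, and a further probe set that lists it with predicted genes was left out.

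The remaining effectors had smaller differences. Rtp4 (a chaperone of receptors), Ifi27, Ifi35, Eif2ak2 (the kinase PKR, which halts translation on double-stranded RNA), Zbp1 (a sensor of left-handed nucleic acid), Samd9l and Bst2 (tetherin, which holds virus particles on the cell) had differences between 0.04 for Bst2 and 0.12 for Rtp4, all with an unadjusted p above 0.05. Rtp4 spanned 5.77 to 6.19 in Dp5/Dp1 and 5.87 to 5.93 in control, with Dp5/Dp1 replicate 4 below all controls. Xaf1, linked to cell death, had a lower mean in Dp5/Dp1, with a difference of -0.05 ± 0.08. Mx1 read 5.00, 5.13, 5.04, 5.06 and 5.12 in Dp5/Dp1, against 5.04, 5.07, 5.11, 5.08 and 5.06 in control. The 2 groups lay on top of each other, with a difference of -0.0034 ± 0.03 (SE), a 95% interval of -0.07 to 0.07 and an adjusted p = 0.991 by limma. Mx2 read 4.82, 4.87, 4.84, 4.80 and 4.78 in Dp5/Dp1, against 4.83, 4.91, 4.83, 4.87 and 4.93 in control, again overlapping, with a difference of -0.05 ± 0.03 (adjusted p = 0.845). Both were close to the floor, at the 10.6th percentile of mean brightness for Mx1 and the 6.17th for Mx2, where RMA compresses differences. Many laboratory mouse strains are known to carry defective Mx genes.

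**Figure D2:**
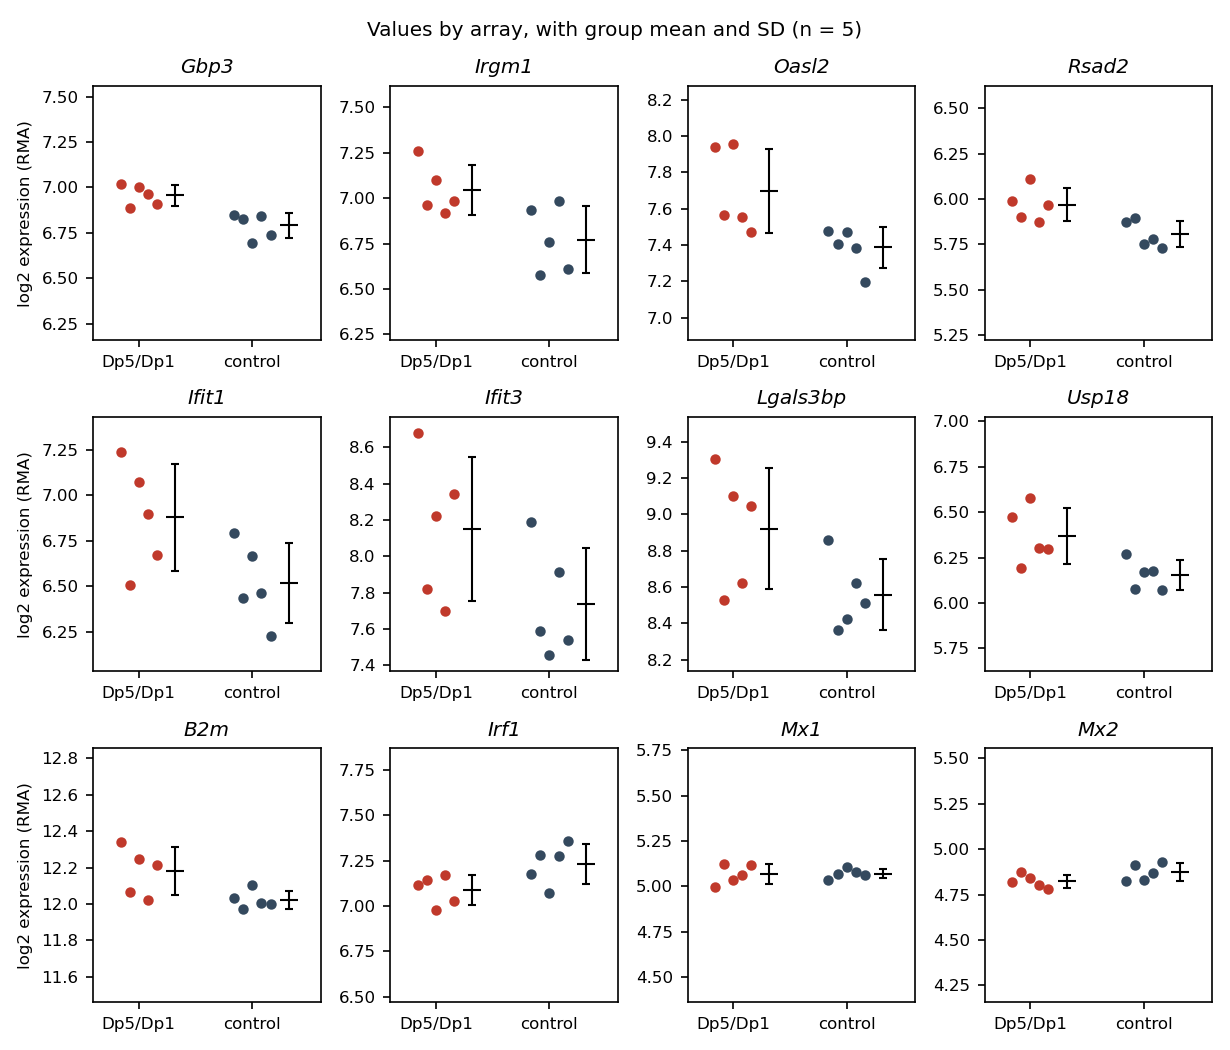
RMA log2 expression (y axis, the same span in each panel) of 12 members in the 5 Dp5/Dp1 arrays (left, red) and the 5 control arrays (right, dark), with the mean and SD of each group. Gbp3 is the panel of a 2-copy member with a higher mean in which the groups do not overlap, while Ifit3 and Lgals3bp spread widely within each group and Mx1 and Mx2 are flat near 5.

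In the ISG15 and ubiquitin-like group, 3 of the 4 measured members had a higher mean in Dp5/Dp1. Usp18, the protease that removes ISG15 from proteins and also damps signalling at Ifnar2, read 6.47, 6.19, 6.58, 6.30 and 6.30 in Dp5/Dp1, against 6.27, 6.08, 6.17, 6.18 and 6.07 in control. Replicates 1 and 3 of Dp5/Dp1 stood out and replicate 2 lay within the control range. The difference was 0.21 ± 0.07 (SE), a 1.16-fold ratio, with an unadjusted p = 0.00903 and an adjusted p = 0.714 by limma. Trim25, a ubiquitin ligase that activates the sensor RIG-I, averaged 6.76 ± 0.16 in Dp5/Dp1 and 6.63 ± 0.04 in control (SD, n = 5 each), with replicates 1, 3 and 5 of Dp5/Dp1 above all controls and replicates 2 and 4 not. Its difference was 0.13 ± 0.07, that of Trim30a was 0.11 ± 0.08 and that of Herc6, the main ISG15 ligase in mouse, was -0.04 ± 0.06.

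All 4 genes of antigen processing had a higher mean. B2m, the light chain of class I major histocompatibility molecules and the brightest member, read 12.34, 12.07, 12.25, 12.02 and 12.22 in Dp5/Dp1, against 12.03, 11.97, 12.10, 12.00 and 12.00 in control. Dp5/Dp1 replicates 1, 3 and 5 lay above all controls and replicates 2 and 4 within their range. The difference was 0.16 ± 0.06 (SE), a 1.11-fold ratio, with an unadjusted p = 0.0186 and an adjusted p = 0.806 by limma. Psmb8, a catalytic subunit of the immunoproteasome, read 5.89, 5.86, 5.85, 5.84 and 5.98 in Dp5/Dp1, against 5.85, 5.76, 5.72, 5.84 and 5.82 in control, with overlapping groups. Its difference was 0.08 ± 0.04 with an unadjusted p = 0.0432, and it was dim, at percentile 25.4 of mean brightness. Psmb9 and Tap1, its neighbours on chromosome 17, had differences of 0.03 ± 0.05 and 0.07 ± 0.05.

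The ADP-ribosyltransferase group on chromosome 16 had 3 of 3 members with a higher mean. Dtx3l, a ubiquitin ligase that works in a complex with Parp9, read 7.51, 7.37, 7.35, 7.42 and 7.37 in Dp5/Dp1, against 7.33, 7.36, 7.35, 7.31 and 7.21 in control. The highest value was that of Dp5/Dp1 replicate 1 and the lowest that of control replicate 5, with the others close together. Its difference was 0.09 ± 0.04 with an unadjusted p = 0.0396, and those of Parp9 and Parp14 were 0.10 ± 0.06 and 0.09 ± 0.04. Dtx3l and Parp9 overlap at their ends in the annotation.

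The sensors of viral RNA, Ddx58 (RIG-I) and Ifih1 (MDA5), had differences of 0.09 ± 0.06 and 0.07 ± 0.05, neither with an unadjusted p under 0.05. Of the 4 transcription factors, 2 had a higher mean. Irf7, the amplifier of type I interferon production, averaged 6.33 ± 0.10 in Dp5/Dp1 and 6.22 ± 0.09 in control (SD, n = 5 each), with a difference of 0.11 ± 0.06, and Irf9, the DNA-binding part of ISGF3, had one of 0.09 ± 0.07. Stat2 was level, with a difference of -0.02 ± 0.05. Irf1, a factor that interferon gamma induces strongly, had a lower mean and read 7.11, 7.14, 6.98, 7.17 and 7.03 in Dp5/Dp1, against 7.18, 7.28, 7.07, 7.27 and 7.36 in control. Irf1 had 2 probe sets carrying its symbol alone, and these values are those of the brighter one. The dimmer one was not read on its own. Control replicate 3 lay among the Dp5/Dp1 values and the other 4 controls lay above all Dp5/Dp1 mice. The difference was -0.14 ± 0.06 (SE), a 0.90-fold ratio, with an unadjusted p = 0.0235 and an adjusted p = 0.806 by limma.

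**Figure D3:**
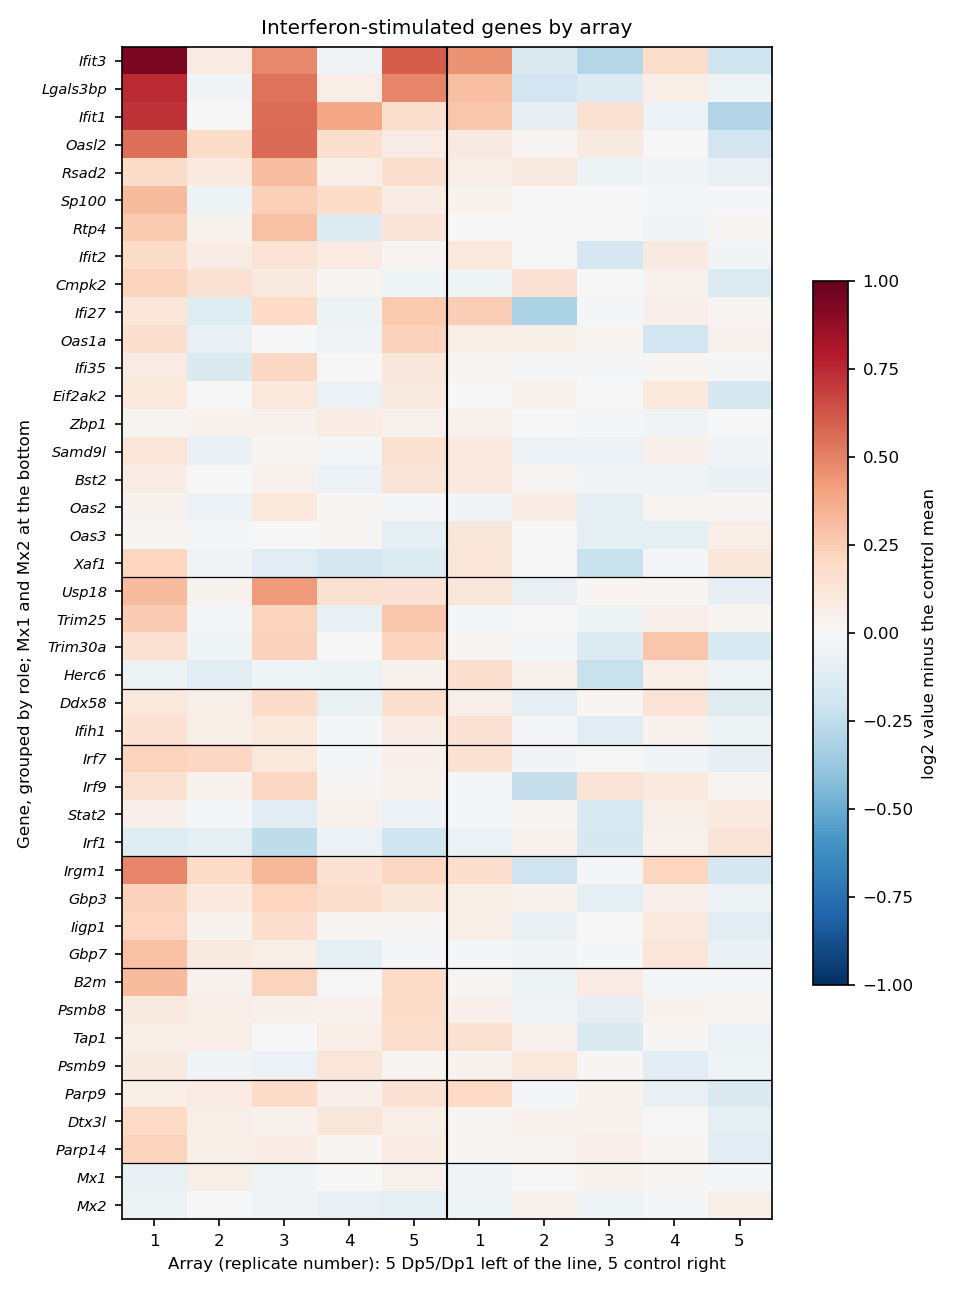
Log2 value of each measured member (rows, grouped by role, Mx1 and Mx2 at the bottom) on each array (columns, 5 Dp5/Dp1 left and 5 control right), minus the mean of the controls, with red above and blue below on a scale from -1 to 1. Replicates 1 and 3 of Dp5/Dp1 are red in most rows, replicates 2 and 4 are pale, and control replicate 1 is redder than the other controls.

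Many members were high or low on the same arrays. The mean over the 40 was 7.14, 6.95, 7.08, 6.95 and 7.03 in Dp5/Dp1 replicates 1 to 5, against 7.01, 6.90, 6.88, 6.96 and 6.87 in control replicates 1 to 5. Group means were 7.03 ± 0.08 in Dp5/Dp1 and 6.92 ± 0.06 in control (SD, n = 5 each). The groups overlapped, since Dp5/Dp1 replicates 2 and 4 lay below the 2 highest controls, replicates 1 and 4.

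Counted gene by gene, 37, 19, 31, 13 and 29 of the 40 lay above the median of the 10 arrays in Dp5/Dp1 replicates 1 to 5, against 25, 13, 4, 19 and 9 in control replicates 1 to 5. The highest value of all 10 arrays was in Dp5/Dp1 replicate 1 for 16 members and in replicate 3 for 8. The lowest was in control replicate 5 for 14 members and in control replicate 3 for 11. Members with a larger SD in Dp5/Dp1 than in control numbered 22 of 40 (55.0%), against 47.4% of all genes. Ifit3, Ifit1, Lgals3bp, Oasl2 and Irgm1 had the widest ranges over the 10 arrays, from 1.22 for Ifit3 to 0.68 for Irgm1.

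Markers of the cells that express interferon-stimulated genes were followed on the same arrays. The mean of 14 microglia markers spanned 8.47 to 8.67 in Dp5/Dp1 and 8.55 to 8.66 in control, and 5 of the 14 had a higher mean in Dp5/Dp1, none with an unadjusted p under 0.05, while Selplg had one with a lower mean (-0.14 ± 0.05). Within Dp5/Dp1 it was lowest in replicates 4 (8.47) and 2 (8.54), the same mice that were low in the members. With that mean as a covariate the median difference of the members was 0.10 and 35 of 40 were higher. The part of microglia in the result was not tested. For 11 endothelial markers the mean spanned 9.05 to 9.17 in Dp5/Dp1 and 8.98 to 9.18 in control, with 6 of the 11 higher in mean and a median difference of 0.02. Cldn5 (0.25 ± 0.07), Tek (0.22 ± 0.06) and Abcb1a (0.12 ± 0.05) had an unadjusted p under 0.05 with a higher mean, none of them called, and of the 5 with a lower mean Slc2a1 (-0.18 ± 0.11), Flt1 (-0.08 ± 0.05) and Pecam1 (-0.07 ± 0.05) lay lowest. Endothelial levels were highest in control replicate 1 and Dp5/Dp1 replicate 3 and lowest in control replicates 5 and 2, and their part in the result was not tested. Markers of meninges and fibroblasts (9 genes, 4 with a higher mean) spanned 7.88 to 8.21 in Dp5/Dp1 and 7.83 to 8.34 in control. They were highest in control replicates 1 and 4 and lowest in control replicates 2 and 5. Within Dp5/Dp1 they were highest in replicates 3 and 5 and lowest in replicate 4. Pericyte and smooth muscle markers (8 genes, 1 with a higher mean) spanned 8.52 to 8.74 in Dp5/Dp1 and 8.48 to 8.74 in control. The part of both was not tested.

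Perivascular macrophage markers (6 genes, Mrc1 and Cd163 at 5.70 and 5.61 in Dp5/Dp1 and 5.87 and 5.66 in control) were near the floor, with a mean of 5.81 to 5.95 in Dp5/Dp1 and 5.78 to 6.18 in control. Of the 6, 5 had a lower mean in Dp5/Dp1. All 9 lymphocyte markers had a higher mean in Dp5/Dp1, by 0.0011 to 0.12, and their mean spanned 5.74 to 5.82 in Dp5/Dp1 and 5.70 to 5.78 in control. The largest was Nkg7, at 0.12 ± 0.05 (unadjusted p = 0.0184, adjusted p = 0.806 by limma), and Ms4a1 was at 4.90 in Dp5/Dp1 and 4.86 in control. Of 6 listed blood markers only 1, Alas2, was measured. It spanned 7.31 to 8.12 in Dp5/Dp1, with replicate 5 the highest, and 7.26 to 7.64 in control. Its difference was 0.28 and it was not called. The part of lymphocytes and blood in the result was not tested. Astrocyte markers spanned 10.63 to 10.72 in Dp5/Dp1 and 10.63 to 10.82 in control, and 7 of the 10 had a lower mean in Dp5/Dp1. Of these, Gja1 (-0.11 ± 0.04) and Slc1a2 (-0.07 ± 0.03) had an unadjusted p under 0.05, neither of them called. Slc1a2 had all Dp5/Dp1 arrays below all controls, as had 64 of all 19938 genes. The part of astrocytes in the result was not tested. With the choroid plexus and habenula means as covariates the members' median difference was 0.10 and 39 of 40 were higher. With Dp5/Dp1 replicates 2 and 5 left out it was 0.10 and 36 of 40 were higher. The part of choroid plexus and habenula in the result was not tested.

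**Figure D4:**
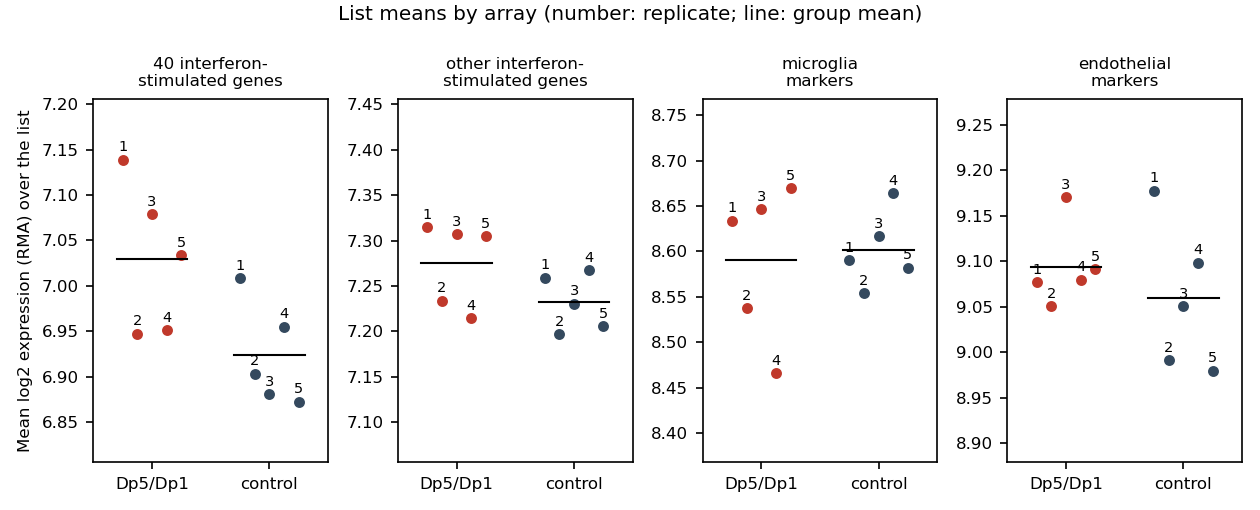
Mean RMA log2 expression per array (y axis, the same span in each panel) over the 40 2-copy members, 50 other interferon-stimulated genes, 14 microglia markers and 11 endothelial markers, with the 5 Dp5/Dp1 arrays left, the 5 control arrays right, replicate numbers above the points and a line at each group mean. Dp5/Dp1 replicate 1 is the highest array for the members at 7.14 but not for the microglia or endothelial markers.

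The rest of the pathway was read from lists drawn up by function. Of 15 measured interferon genes of 18 listed, 8 had a higher mean, none had an unadjusted p under 0.05 and most lay near the floor, with Ifnb1 at a difference of -0.03. Those with the lowest p were Ifne (-0.07 ± 0.04), Ifng (-0.07 ± 0.03), Ifna11 (0.06 ± 0.03) and Ifna2 (0.10 ± 0.09). Of the 6 receptor genes, 4 were called higher and all 4 lie inside Dp5Yah. These were Ifnar2 at 10.05 in Dp5/Dp1 and 9.39 in control (0.66 ± 0.04), Il10rb (0.50 ± 0.04), Ifnar1 (0.44 ± 0.04) and Ifngr2 (0.43 ± 0.05), whereas their 2-copy partners Ifngr1 and Ifnlr1 had differences of 0.01 and -0.01.

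Of 12 measured kinases, STATs and brakes of the pathway, 6 had a higher mean and none was called. Ptpn1, a phosphatase that acts on Jak2 and Tyk2, had a lower mean (-0.13 ± 0.05, unadjusted p = 0.0315). Jak2 was at -0.12 ± 0.06, Cish at 0.05 ± 0.03 and Jak1 at -0.04 ± 0.03. The inducible brakes Socs1 and Socs3, chosen after their values were seen, were both at 0.02. Of 14 measured sensing genes upstream of interferon, 8 had a higher mean and none was called, the lowest p being that of Tlr3, an endosomal sensor of double-stranded RNA (0.15 ± 0.05, unadjusted p = 0.0184), followed by Irf3 (0.09 ± 0.05), Myd88 (0.16 ± 0.10) and Cgas (0.05 ± 0.03).

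A second list of 64 interferon-stimulated genes, 50 of them measured, was read beside the members. A higher mean was seen for 35 of the 50 (70.0%), the median difference was 0.04, and 5 had an unadjusted p under 0.05 with a higher mean, with none called. The 4 with the lowest p were Casp1, the inflammasome protease (0.12 ± 0.04), Lgals9, a galectin (0.20 ± 0.08), Isg20, an exonuclease (0.22 ± 0.10), and Psme2, a proteasome activator (0.07 ± 0.03). The mean over the 50 was 7.21 to 7.31 in Dp5/Dp1 and 7.20 to 7.27 in control.

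Brightness and promoter letters were set beside the differences. Of the 40 2-copy members, 23 were among the dimmest 40% of genes, where RMA compresses differences, and 17 passed a filter that removes these. The count with a higher mean was 20 of the 23 dim members and 15 of the 17 brighter ones, and the count with an unadjusted p under 0.05 and a higher mean was 5 of 23 and 7 of 17, against 2.36% of all dim genes and 4.08% of all brighter ones. Of the 12 members with a response element core, 10 had a higher mean, 6 had an unadjusted p under 0.05 with a higher mean (Gbp3, Rsad2, Irgm1, B2m, Ifit1 and Ifit3) and the median difference was 0.13. Of the 20 with a window but no core, 17 had a higher mean, 5 had an unadjusted p under 0.05 with a higher mean and the median was 0.09. Stat2 and Oas3 carried a core and had a lower mean. The cores of Ifit3 lie inside the annotated bounds of the gene.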

How the data were processed

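RNA from the whole hippocampus (right and left) was biotin-labelled and put on Affymetrix Mouse Gene ST arrays. The authors normalised the arrays by RMA and deposited log2 expression values per probe set, which compresses the differences of dim genes and gives all arrays nearly the same distribution. Per the submitters' processing notes RMA, limma and mm10 were used, with versions not given in the sources used here. Of 35556 probe sets, 21789 were annotated with exactly 1 symbol, 1621 with several symbols and 12146 are unnamed here. For the 999 genes with more than 1 such probe set the brightest was read, which left 19938 genes.

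limma 3.58.1 in R 4.3.3 (lmFit, eBayes, two-sided, no covariate) compared 5 Dp5/Dp1 with 5 control arrays. P-values were adjusted by Benjamini-Hochberg across all 19938 genes, and a gene was "called" at an adjusted p under 0.05. Unadjusted p-values are given as descriptions. Groups came from the condition label. 1 array stands for 1 mouse, and the number of arrays limits the precision. The members, roles and other lists were chosen with earlier results of these data known. Genes given by array were those with an unadjusted p under 0.05, those without overlap, Ifit1, Ifit2, Irgm1, Mx1 and Mx2, and in other lists called genes or the 4 with the lowest p were named, besides Socs1, Socs3, Ifnb1, the 2-copy receptor genes and the markers. Promoters came from the RefSeq table of GRCm38.p6, in which 36 of the 46 members had a window. Alternatives were no dim genes, renewed quantile normalisation, the mean of probe sets, array weights, a robust variance with an intensity trend, a replicate block, each array left out, 2 arrays left out, tissue and microglia covariates, FCROS (rewritten from its description), an adjusted p under 0.1 and a motif mismatch. The fits were tested on simulated data with known differences.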

Additional observations from a re-analysis of the deposited data

Results flagged for a closer look

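Among 84 sets of 5 arrays (42 members in 2 groups), 3 had an extreme array whose gap to its nearest neighbour exceeded 0.71 of the range of the set (Dixon's limit), and chance flags about 1 set in 20. Parp14 was 6.11 in Dp5/Dp1 replicate 1, with the next highest Dp5/Dp1 array at 5.96. Parp14 was also 5.78 in control replicate 5, with the next lowest control at 5.90. Both lie in the direction of the group difference, and without Dp5/Dp1 replicate 1 the difference of Parp14 was 0.05. Oas1a was 6.44 in control replicate 4, with the next lowest control at 6.65, and without that array its difference was 0.01.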

How the results depend on the processing

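No 2-copy member was called under any of the 19 limma fits or at an adjusted p under 0.1, whereas FCROS placed 10 in its upper tail. The count with an unadjusted p under 0.05 and a higher mean (12 of 40) was 7, and the count with a higher mean (35) was 15, without the dimmest 40% of genes, where only 17 members were tested. With single arrays left out, the first count ranged from 6 (without Dp5/Dp1 replicate 1) to 16 (without control replicate 1). The count with a higher mean ranged from 34 to 36. The count without overlap, in either direction, ranged from 1 to 5, with no share of all genes computed beside it. The promoter count of 12 was 25 with 1 mismatch. Whether replicate numbers pair the mice cannot be told from these values. The deviations of same-numbered arrays correlated at -0.27, 0.29, -0.01, -0.35 and -0.06, which were not compared with those of differently numbered arrays. With the replicate number as a block 0 members were called and 13 had an unadjusted p under 0.05 with a higher mean. Of 773 member differences under alternatives, 15 changed sign, all in members near 0. With the choroid plexus and habenula means in the model they were 0.0113 for Stat2, 0.0026 for Xaf1, 0.0159 for Herc6 and 0.0111 for Oas3. Oas3 was 0.0082 without Dp5/Dp1 replicates 2 and 5, and Mx1 was 0.0019 after renewed quantile normalisation. In the fits without 1 array, the ranges were -0.0180 to 0.0141 for Mx1, -0.0586 to 0.0036 for Stat2, -0.00602 to 0.0356 for Oas2 and -0.0419 to 0.0106 for Oas3, and the cause was not tested.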
